A study of Homo sapiens with 18 samples.

Results

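The BCL2 family decides whether a cell keeps its mitochondrial outer membrane intact or starts apoptosis. Its transcripts were followed here through 10 genes: the survival genes BCL2, BCL2L1, MCL1 and BCL2A1, the BH3-only death genes BCL2L11, BBC3, PMAIP1, BMF and BIK, and the pore-forming effector BAX. They were taken by gene symbol from tables of 23686 symbols. All 10 were present, and all 10 passed the filter on low counts in both cell lines, where 15638 genes were tested in OCI-Ly1 and 15363 in TMD8. The series measured total RNA, depleted of ribosomal RNA, by bulk RNA sequencing in OCI-Ly1 and TMD8, human cell lines grown from diffuse large B-cell lymphoma. Each line received either vehicle (0.01% DMSO) or JIB-04, a known inhibitor of the Jumonji family of histone demethylases, at 150 nM or 500 nM, and each of the 6 groups had 3 libraries. OCI-Ly1 was kept in IMDM and TMD8 in an RPMI medium, so line and medium cannot be told apart, and each line stands for 1 tumour. The labels call the 3 libraries of a group technical triplicates and give no treatment time. They do not say that the libraries came from separate cultures, so the p-values below measure only the spread between these libraries, which may be technical.

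Survival proteins of the family bind and hold back the death proteins. BH3-only proteins are the sensors: each is raised or activated by some form of stress, occupies the groove of the survival proteins, and some also activate BAX directly. Activated BAX forms pores in the outer mitochondrial membrane, through which cytochrome c leaves to start the caspases. B-cell lymphomas differ in which survival protein they lean on. OCI-Ly1 is a germinal-centre type line known to carry a translocation that puts BCL2 under immunoglobulin heavy-chain control, while TMD8 is an activated B-cell type line with chronic NF-kB signalling, and BCL2A1 is a well-known NF-kB target. BBC3 and PMAIP1 are known to be raised through ATF4 and DDIT3 in the integrated stress response.

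The promoters of the 4 death genes that were called higher at 500 nM JIB-04 in both lines are shown. The survival gene BCL2L1 was also called higher in both lines, and its promoter is not shown. RefSeq promoter entries (GRCh38.p14) were found for 8 of the 10 members, with 10 entries in all. MCL1 and BIK had no entry. Each line gives the 250 bases before the annotated start of the first entry, read 5′ to 3′ on the gene's strand. Capitals mark matches on either strand to CACGTG, the E-box bound by MYC and its partners, and to TGACG, the core of sites for the CREB and ATF factors.

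BBC3, chr19:47232668-47232917, minus strand: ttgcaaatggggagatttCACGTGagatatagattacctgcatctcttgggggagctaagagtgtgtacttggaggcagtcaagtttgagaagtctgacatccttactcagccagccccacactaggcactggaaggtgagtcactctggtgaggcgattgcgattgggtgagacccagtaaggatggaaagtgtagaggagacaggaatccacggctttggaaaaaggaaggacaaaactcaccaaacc
PMAIP1, chr18:59899746-59899995, plus strand: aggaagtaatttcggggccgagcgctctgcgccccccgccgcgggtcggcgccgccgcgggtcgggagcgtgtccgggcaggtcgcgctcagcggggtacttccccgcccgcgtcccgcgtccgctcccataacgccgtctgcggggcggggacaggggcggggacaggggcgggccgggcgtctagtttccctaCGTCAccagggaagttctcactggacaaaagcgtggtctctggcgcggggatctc
BMF, chr15:40108880-40109129, minus strand: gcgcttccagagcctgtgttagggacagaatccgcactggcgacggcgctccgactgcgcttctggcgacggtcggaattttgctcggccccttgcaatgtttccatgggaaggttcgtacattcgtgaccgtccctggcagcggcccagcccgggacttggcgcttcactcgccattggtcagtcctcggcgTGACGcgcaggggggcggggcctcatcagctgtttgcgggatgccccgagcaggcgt
BAX, chr19:48954625-48954874, plus strand: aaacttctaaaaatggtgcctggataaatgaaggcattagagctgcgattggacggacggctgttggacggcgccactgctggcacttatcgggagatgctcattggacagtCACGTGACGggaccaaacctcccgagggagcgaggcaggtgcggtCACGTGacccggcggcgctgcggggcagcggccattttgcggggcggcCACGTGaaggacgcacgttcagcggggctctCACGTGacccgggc

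BAX held 4 matches to CACGTG, whose first bases lay 138, 93, 45 and 14 bases before the start, and 1 match to TGACG that overlapped the farthest of them. BBC3 held 1 match to CACGTG at 232 bases before the start. In the same window, 6.34% of 35116 RefSeq promoters held CACGTG. PMAIP1 and BMF each held 1 match to TGACG, at 55 and 57 bases before the start, and this motif was in 21.2% of all promoters. TGATGNAA, the composite site of ATF4 with C/EBP factors, was in none of these 4 windows and in 3.14% of all promoters. Among the other members only the window of BCL2A1 held it. TGACG also had 1 match in the first entry of the survival genes BCL2 and BCL2L1, at 225 and 201 bases before the start. The second entry of BMF held no TGACG. The p53 half-site motif, also searched, matched no entry of the members and 5.57% of all promoters. A match here describes letters and is no evidence of binding.

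The depth of a library lay between 17579732 and 32651115 estimated counts for OCI-Ly1, and between 9550092 and 20509500 for TMD8. No pair of libraries within a group agreed to within sampling noise. All 6 B-cell markers examined (among them MS4A1, CD79A and PAX5) averaged at least 1 TPM (transcripts per 1000000) in both lines. Of the germinal-centre markers BCL6, MME, MYBL1 and LMO2, 3 of 4 averaged at least 1 TPM in OCI-Ly1 and 2 of 4 in TMD8. LMO2 went against the line types, with a mean of 0.0113 TPM in OCI-Ly1 and 25.1 TPM in TMD8 with DMSO. BCL6, MME and MYBL1 read higher in OCI-Ly1. Of the activated B-cell markers IRF4, FOXP1, BATF and CCND2, 3 of 4 did so in OCI-Ly1 and 4 of 4 in TMD8. The summed TPM of the activated B-cell markers in OCI-Ly1 ran from 95.5 to 101 with DMSO and from 179 to 189 at 500 nM, and in TMD8 from 599 to 748 and from 303 to 352. T-cell markers summed to 27.2 to 29.8 TPM with DMSO and 12.3 to 14.2 TPM at 500 nM in OCI-Ly1, where 2 of 5 averaged at least 1 TPM, and to at most 2.13 TPM in TMD8. Fibroblast markers summed to at most 0.0688 TPM in OCI-Ly1, and in TMD8 to 0.492 to 0.599 TPM with DMSO and 2.75 to 2.96 TPM at 500 nM. The part of these marker shifts in the results below was not tested.

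With DMSO the lines had different family profiles. Levels of different genes are compared in TPM, which is per transcript length. BCL2 stood first in OCI-Ly1 at 228.5, 231.6 and 242.4 TPM in the 3 libraries. It was followed by BAX (mean 128 TPM), BIK (84.9), MCL1 (83.6), PMAIP1 (68.7), BCL2L11 (46), BCL2L1 (30.2), BMF (29.5), BBC3 (5.10) and BCL2A1 (1.85). BIK and MCL1 overlapped in their libraries, and the other neighbours in this order did not. In TMD8 the order began with BCL2L11, which encodes the BH3-only protein BIM, at 201.5, 164 and 158.2 TPM. BAX (102 TPM), BCL2A1 (101), MCL1 (70.9), BCL2 (38.1), BMF (19), PMAIP1 (17.7), BCL2L1 (15.3), BBC3 (9.89) and BIK (2.70) followed. BAX overlapped BCL2A1 there, BMF overlapped PMAIP1, and PMAIP1 overlapped BCL2L1. TPM levels are not set side by side between the lines, because 3 short noncoding RNAs (MIR3687, MIR3648 and MIR663A) held 37.5% to 51% of all TPM in a TMD8 library, while the leading 3 of OCI-Ly1 (RPPH1, RMRP and MIR663A) held 12.9% to 20.3%.

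Between the lines, counts per 1000000 (CPM) scaled by TMM over all 18 libraries were compared with edgeR's quasi-likelihood test, and a gene was called at a Benjamini-Hochberg adjusted p under 0.05. With DMSO, 9 of the 10 members were called, 3 higher and 6 lower in OCI-Ly1, against 76.7% of the 16604 genes tested (37.8% higher and 39% lower). Of all calls, 49.2% were higher in OCI-Ly1, and 79.5% were so on log2(TPM + 1). BCL2 read 541.5, 552.7 and 554.9 CPM in OCI-Ly1 and 229.8, 235.1 and 231.1 CPM in TMD8, a 2.37-fold difference. BIK, whose protein sits mainly in the endoplasmic reticulum membrane, averaged 52.4 ± 5.1 CPM (SD, n = 3) against 3.25 ± 0.049 CPM, which is 16.1-fold. BCL2A1 lay far on the other side. It averaged 1.06 ± 0.196 CPM in OCI-Ly1, from 16 to 33 counts a library, and 112 ± 9.15 CPM in TMD8, a log2 difference of -6.69 ± 0.11 (SE). BCL2L11 was also lower in OCI-Ly1 (log2 difference -2.29 ± 0.05, SE), at 130 ± 2.3 CPM against 637 ± 29.4 CPM. BBC3, which encodes PUMA, was lower too, at 5.96 ± 0.9 CPM against 25.5 ± 4 CPM. PMAIP1, which encodes NOXA, was 1.99-fold higher in OCI-Ly1, at 94.7 ± 7.99 CPM against 47.5 ± 2.8 CPM. MCL1 (log2 difference -0.73), BAX (-0.67) and BMF (-0.34) were lower in OCI-Ly1 by this test but higher on log2(TPM + 1) by 0.24, 0.33 and 0.62, a scale on which the median of all genes lay 0.614 higher in OCI-Ly1. BCL2L1, which encodes BCL-XL, was the member not called, at 56 ± 1.4 CPM against 55.8 ± 0.813 CPM (adjusted p = 0.94, edgeR). It was called higher in OCI-Ly1 on log2(TPM + 1) (0.93), on the centred TPM scale (0.21) and by library size alone (0.15).

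**Figure D1:**
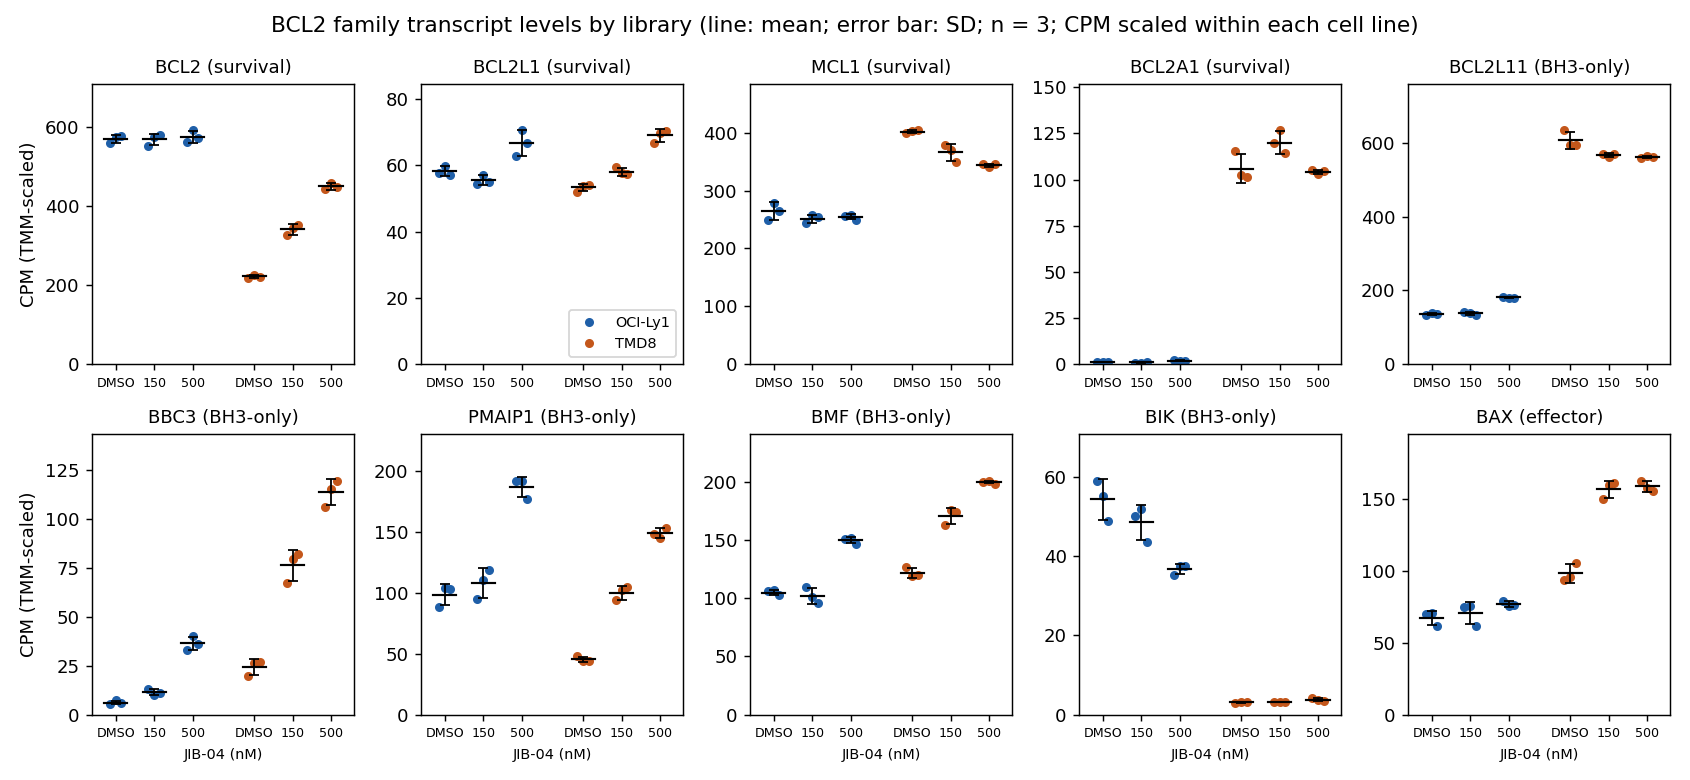
Each panel plots 1 member, with 1 point per library, the mean as a line and the SD as an error bar (n = 3), in CPM from 0 upward against JIB-04 dose for OCI-Ly1 (left, blue) and TMD8 (right, orange), scaled within each line. BBC3 and PMAIP1 climb with dose in TMD8 and sit highest at 500 nM in both lines, BCL2 climbs in TMD8 from a mean of 222 to 451 CPM and stays near 570 CPM in OCI-Ly1, and BIK falls in OCI-Ly1.

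The first question within a line was what JIB-04 did to each member at each dose, tested over the 9 libraries of the line. The comparisons of both doses with DMSO share the DMSO libraries, and those of 500 nM share the 500 nM libraries. At 150 nM in OCI-Ly1, BBC3 was the 1 member called, against 0.889% of all genes tested (0.748% higher and 0.141% lower). BBC3 was at 5.472, 7.277 and 5.851 CPM with DMSO and 13.24, 10.11 and 11.17 CPM at 150 nM. All 150 nM libraries lay above all DMSO libraries, and the change was 0.91 ± 0.13 on the log2 scale (SE, adjusted p = 0.00077, edgeR). The other 9 members changed by between -0.44 (BCL2A1) and 0.13 (PMAIP1) on the log2 scale, none of them called.

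At 500 nM in OCI-Ly1, 6 members were higher and 1 lower than with DMSO, against 53.6% of genes called in either direction (27.7% higher and 25.9% lower). Of all calls, 51.6% were higher, a share that was 64% when counts were scaled by library size alone, 71.9% in a test of log2(TPM + 1), and 32.3% once those values were centred on each library's median (the centred TPM scale). The median log2 change of the 10 members was 0.31, and that of all genes tested was -0.0033. The libraries of 500 nM and DMSO were apart for 8 members, as for 60.7% of all genes. All 5 BH3-only genes were called, 4 higher and 1 lower, and of the 4 survival genes 1 was called.

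BBC3 rose most. Its 3 libraries at 500 nM were at 33.04, 40 and 36.39 CPM, a 5.95-fold rise over DMSO (log2 change 2.57 ± 0.12, SE, adjusted p = 6e-12, edgeR). It was also 3.16-fold above the 150 nM level, so each dose lay above the one before with no overlap of libraries. PMAIP1, whose product binds MCL1 above all, stood at 88.42, 103.9 and 103.1 CPM with DMSO and 191.8, 191.7 and 177.4 CPM at 500 nM. The libraries were apart, and the rise was 1.9-fold (log2 change 0.93 ± 0.08, SE). BMF, whose protein is known to be released from the cytoskeleton under stress, was at 106, 106.9 and 102.7 CPM with DMSO and 151, 152.1 and 147 CPM at 500 nM, 1.43-fold higher. BCL2L11 was at 132.9, 138.4 and 134.9 CPM with DMSO and 183.3, 179.4 and 179.2 CPM at 500 nM, 1.33-fold higher. For both genes the 150 nM libraries stayed near the DMSO libraries and the 500 nM libraries lay above all of them.

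BIK was the 1 member that fell in OCI-Ly1. It was at 59.04, 55.28 and 48.95 CPM with DMSO, 50.21, 51.96 and 43.63 CPM at 150 nM and 35.28, 37.52 and 37.54 CPM at 500 nM. The 500 nM libraries lay below all others, at 0.676 of the DMSO level (log2 change -0.57 ± 0.08, SE, adjusted p = 1.1e-05, edgeR). BIK fell at 500 nM while the other 4 BH3-only genes rose.

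BAX was at 69.94, 70.66 and 61.74 CPM with DMSO and 79.43, 75.97 and 76.11 CPM at 500 nM. The libraries did not overlap, but the 1.15-fold rise was called narrowly (adjusted p = 0.034, edgeR). Without the third DMSO library (adjusted p = 0.17), without the first (0.12), the second (0.063) or the third (0.06) of the 500 nM libraries, or on the centred TPM scale (0.35), it was no longer called. BCL2L1 was at 57.77, 59.92 and 57.06 CPM with DMSO and 62.71, 70.55 and 66.86 CPM at 500 nM, also 1.15-fold higher (adjusted p = 0.011, edgeR). Leaving out the second 500 nM library (adjusted p = 0.071) or testing centred TPM (0.13) ended that call.

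For the most abundant survival gene of OCI-Ly1 no change was called. BCL2 was at 560, 575.7 and 578.3 CPM with DMSO, 553.7, 575.4 and 581 CPM at 150 nM and 562.9, 592.7 and 573.9 CPM at 500 nM. The 3 groups overlapped, and the change at 500 nM was 0.01 ± 0.04 on the log2 scale (SE, adjusted p = 0.82, edgeR). Its direction depended on the scaling: by library size alone it was called higher (0.1, adjusted p = 0.044, edgeR), and on the centred TPM scale lower (-0.14, adjusted p = 0.029, limma). MCL1, a short-lived survival protein, averaged 264 ± 15.4 CPM with DMSO and 255 ± 4.32 CPM at 500 nM (SD, n = 3; adjusted p = 0.39, edgeR). Its libraries overlapped as well, and it was called lower on the centred TPM scale (-0.14, adjusted p = 0.039, limma) but read 0.084 on log2(TPM + 1). BCL2A1 stayed at 0.7265 to 1.966 CPM in all 9 libraries, from 16 to 66 counts each. It was 2.04-fold higher at 500 nM than at 150 nM (adjusted p = 0.0054, edgeR), and its difference from DMSO was not called (log2 change 0.59 ± 0.27, SE, adjusted p = 0.071, edgeR). That difference was called by library size alone (0.67, adjusted p = 0.039) and on log2(TPM + 1) and log2(TPM + 0.1) (0.53 and 0.73, adjusted p = 0.0055 and 0.008, limma). Against 150 nM, 500 nM was higher in 6 members and lower in 1, with 46.2% of genes called (25.1% higher and 21.1% lower). The higher share of those calls was 54.3%, with 67.9% by library size alone, 72.7% on log2(TPM + 1) and 31.8% on the centred TPM scale. These were BCL2L1, BCL2A1, BCL2L11, BBC3, PMAIP1 and BMF, and BIK.

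In TMD8 the response was already broad at 150 nM. There, 6 members were higher and 1 lower than with DMSO, against 44.2% of genes called (19.2% higher and 25% lower). Of these calls 43.5% were higher, a share that moved to 60.5% by library size alone and 21.3% on log2(TPM + 1). At 500 nM, 6 were higher and 2 lower, against 60.7% of genes called (29.9% higher and 30.7% lower). Of all calls at 500 nM, 49.3% were higher, a share that was 59.4% when scaled by library size alone and 18.8% in a test of log2(TPM + 1). The median log2 change of the members at 500 nM was 0.53, and that of all genes was 0.0414. The libraries were apart from DMSO for 8 members at 150 nM and 9 at 500 nM, as for 51.4% and 66.4% of all genes. With 10 members, 8 called is not far above that background.

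BCL2 rose over DMSO at both doses in TMD8. Its 3 DMSO libraries held 217.5, 225.5 and 221.7 CPM, against 326.8, 344.7 and 353.3 CPM at 150 nM and 443, 460.3 and 448.8 CPM at 500 nM. No library of 1 group overlapped another. The rise over DMSO was 1.54-fold at 150 nM and 2.03-fold at 500 nM (log2 change 1.02 ± 0.05, SE, adjusted p = 5.2e-12, edgeR). The step from 150 nM to 500 nM was 0.40 on the log2 scale (adjusted p = 6.9e-06, edgeR) and 0.23 on log2(TPM + 1), where it was not called (adjusted p = 0.084, limma). At 500 nM the TMD8 level came to 451 ± 8.84 CPM (SD, n = 3), and BCL2 moved from rank 5 to rank 4 among the members by TPM, where it overlapped BCL2A1. BCL2L1 rose less, from 51.93, 53.88 and 54.08 CPM to 66.83, 69.72 and 70.48 CPM at 500 nM, 1.29-fold (adjusted p = 5.4e-06, edgeR). On log2(TPM + 1) the BCL2L1 change was -0.0037, on a scale where the median of all genes fell by 0.219. In bulk RNA, more cells that express a gene and more RNA of it per cell cannot be told apart, for this and every other change reported.

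MCL1 was the survival gene that fell in TMD8. The DMSO libraries read 400.2, 402.3 and 404.1 CPM, against 379.6, 369.5 and 349.5 CPM at 150 nM and 345.8, 341.3 and 345.4 CPM at 500 nM. Both doses lay below DMSO without overlap, at 0.91 and 0.856 of its level (adjusted p = 0.02 and 0.00031, edgeR). The 150 nM call was lost without the third 150 nM library (0.2), without the third DMSO library (0.053), without the low-count filter and with library size as the only scaling. BCL2A1 averaged 106 ± 7.88, 120 ± 6.11 and 104 ± 1.16 CPM (SD, n = 3) at DMSO, 150 nM and 500 nM. It was called higher at 150 nM (1.13-fold, adjusted p = 0.014, edgeR) although its libraries overlapped, and that call was lost on each TPM scale, without the second or the third DMSO library and without the second 150 nM library. At 500 nM its log2 change was -0.03 ± 0.06 (SE), and it was called lower on log2(TPM + 1) (-0.39, adjusted p = 0.0055, limma).

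BBC3, PMAIP1 and BMF rose at both doses in TMD8. BBC3 was at 19.75, 26.18 and 27.06 CPM with DMSO, 67.63, 79.43 and 82.25 CPM at 150 nM and 106.4, 115.4 and 119.6 CPM at 500 nM. The rise was 3.13-fold at the lower dose and 4.64-fold at the higher (log2 change 2.21 ± 0.09, SE, adjusted p = 2.4e-12, edgeR). PMAIP1 was at 48, 44.35 and 43.71 CPM with DMSO, 94.11, 102.3 and 104.8 CPM at 150 nM and 148.2, 145.2 and 153.1 CPM at 500 nM. Its rise was 2.22-fold and 3.28-fold, and the 3 groups were apart. BMF was at 126.9, 119.5 and 119.8 CPM with DMSO, 162.9, 176.1 and 174 CPM at 150 nM and 200.3, 200.9 and 198.7 CPM at 500 nM, 1.4-fold and 1.64-fold higher. Each of these genes was also higher at 500 nM than at 150 nM, by 1.48-fold, 1.48-fold and 1.17-fold, but for BMF the step was gone on log2(TPM + 1) (log2 change 0.0021, adjusted p = 0.99, limma).

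BAX in TMD8 reached its level at the lower dose. The DMSO libraries held 93.58, 95.6 and 105.9 CPM, against 150.4, 160.1 and 161.4 CPM at 150 nM and 162.7, 158 and 155.5 CPM at 500 nM. Both doses lay above DMSO (1.6-fold and 1.61-fold, adjusted p = 3.4e-08 and 4.2e-09, edgeR), and they overlapped each other (log2 difference 0.01 ± 0.05, SE, adjusted p = 0.89). BCL2L11, the most abundant member of TMD8, was at 635, 594.3 and 595 CPM with DMSO and 560, 564.4 and 563.7 CPM at 500 nM. It was called lower at 0.925 of the DMSO level (log2 change -0.11 ± 0.05, SE, adjusted p = 0.042, edgeR). The call did not hold without the first DMSO library (adjusted p = 0.068), or without the first (0.11), the second (0.094) or the third (0.089) of the 500 nM libraries. It was also lost with a replicate block (0.053) and by library size alone (0.68). On the centred TPM scale the log2 change turned to 0.084. BIK stayed at 3.047 to 4.218 CPM in all 9 libraries, from 34 to 64 counts each, and was not called at either dose, except on the centred TPM scale at 500 nM (0.18, adjusted p = 0.03, limma). Between the doses, 5 members were higher at 500 nM and 1 (BCL2A1) lower, with 28.7% of genes called (13.7% higher and 15% lower), and the higher share of those calls was 47.9%, or 10.4% on log2(TPM + 1). Of the 5, BCL2, BCL2L1 and BMF lost the call on both uncentred TPM scales (BCL2L1 0.025, adjusted p = 0.86 on log2(TPM + 1), limma), while BBC3 and PMAIP1 kept it. The BCL2A1 call was lost without the second 150 nM library (adjusted p = 0.068, edgeR). MCL1 gained a call on log2(TPM + 1) (-0.3, adjusted p = 0.027, limma), on the other TPM scales and without the third 150 nM library.

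**Figure D2:**
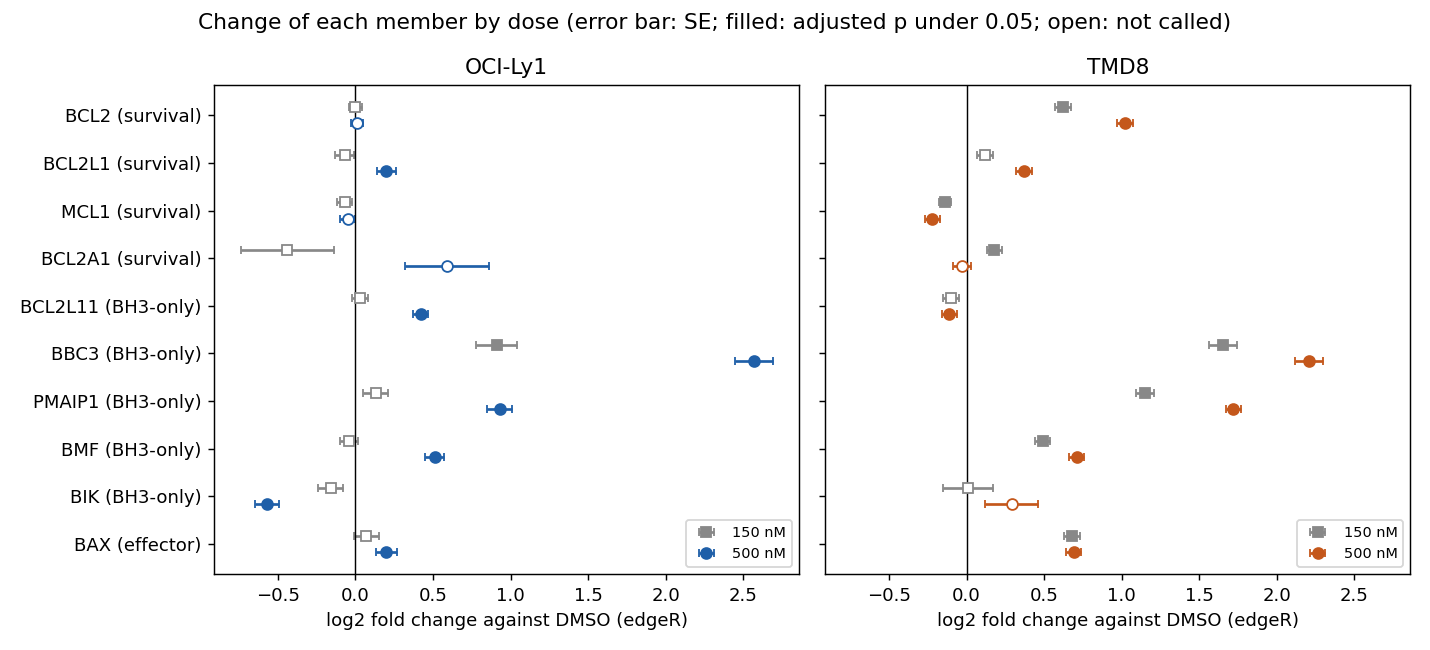
The log2 fold change of each member against DMSO (horizontal axis, edgeR) is plotted with its SE for 150 nM (grey squares) and 500 nM (coloured circles) in OCI-Ly1 and TMD8, with filled symbols for adjusted p under 0.05. In OCI-Ly1 only BBC3 is filled at 150 nM, while TMD8 has 7 filled squares, and BBC3 lies farthest right at 500 nM in both lines (2.57 and 2.21).

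Across the lines, 6 members were called at 500 nM in both. Of all genes tested, 53.6% were called at that dose in OCI-Ly1 and 60.7% in TMD8. The share of genes called in both lines was not computed, so the count of 6 is a description only. BCL2L1, BBC3, PMAIP1, BMF and BAX were higher in both (for BCL2L1 in TMD8 not on the uncentred TPM scales), none was lower in both, and BCL2L11 was called in opposite directions, of which the lower call in TMD8 was lost in 8 of 14 alternatives and reversed in 1. In OCI-Ly1 the BAX call was lost in 5 of 14 alternatives and the BCL2L1 call in 2. The difference between the lines was then tested itself, as the OCI-Ly1 change minus the TMD8 change in a fit of all 18 libraries. The sign of this difference does not say which line changed more. At 150 nM, 5 members differed, all with a negative difference, against 23.3% of genes called (15% positive and 8.33% negative). At 500 nM, 7 members differed, 3 positive and 4 negative, against 46.4% of genes called (28.2% positive and 18.1% negative). Of all calls at 150 nM, 64.2% were positive, with 47% by library size alone and 85.2% on log2(TPM + 1). At 500 nM the positive share was 60.9%, with 89.1% on log2(TPM + 1) and 43.4% on the centred TPM scale.

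BCL2 differed at both doses, by -0.62 ± 0.07 at 150 nM and -0.98 ± 0.07 at 500 nM on the log2 scale (SE, adjusted p = 3.7e-07 and 5.2e-12, edgeR). Every TMD8 library at either dose lay above the DMSO libraries, and the OCI-Ly1 groups overlapped. PMAIP1 rose in both lines at 500 nM but less in OCI-Ly1, by -0.76 ± 0.10 (SE, adjusted p = 9.9e-07, edgeR), and on log2(TPM + 1) that difference was -0.24 (adjusted p = 0.18, limma). BAX differed by -0.46 ± 0.10 (SE, adjusted p = 0.00027, edgeR), but by -0.0065 on log2(TPM + 1), where the median of all genes was 0.383. BIK differed by -0.83 ± 0.18 (SE, adjusted p = 0.00041, edgeR), with TMD8 at 4.218 CPM or less in every library. BCL2L11 went the other way, with a difference of 0.56 ± 0.07 (SE, adjusted p = 1.6e-07, edgeR). That difference was called in all 20 alternatives, with a size from 0.28 to 0.75. MCL1 (0.20, adjusted p = 0.021, edgeR) and BCL2A1 (0.64, adjusted p = 0.011, edgeR) also had a positive difference. The MCL1 call was lost without the first OCI-Ly1 DMSO library (0.069) and the BCL2A1 call without the first OCI-Ly1 500 nM library (0.073). Against DMSO, the log2 change of MCL1 was -0.05 in OCI-Ly1 and -0.22 in TMD8, and that of BCL2A1 was 0.59 and -0.03.

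BBC3 showed a dose pattern that differed between the lines. At 150 nM its rise was smaller in OCI-Ly1 (difference -0.72 ± 0.17, SE, adjusted p = 0.0033, edgeR). At 500 nM the difference was 0.39 ± 0.16 (SE) and just missed the threshold (adjusted p = 0.051, edgeR), and it was called in 10 of 20 alternatives, among them DESeq2 at 0.41. BMF was likewise behind in OCI-Ly1 at 150 nM (-0.52 ± 0.08, SE) and not called at 500 nM (-0.17, adjusted p = 0.068, edgeR). BCL2L1 was not called at either dose (-0.19 and -0.14). Both genes were called in either direction under other scalings. On log2(TPM + 1) their 500 nM differences were 0.31 (BMF, adjusted p = 0.015, limma) and 0.33 (BCL2L1, adjusted p = 0.012), while by library size alone BMF was called at -0.21 at 500 nM (adjusted p = 0.02, edgeR) and BCL2L1 at -0.27 at 150 nM (adjusted p = 0.013).

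**Figure D3:**
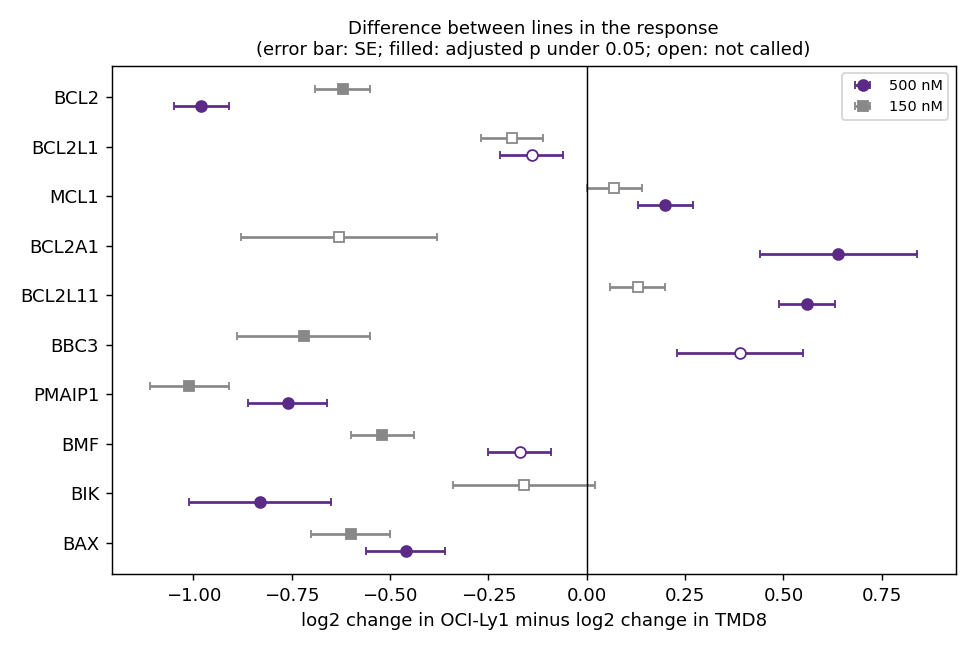
The horizontal axis gives the log2 change in OCI-Ly1 minus that in TMD8 for each member, with its SE, at 150 nM (grey squares) and 500 nM (purple circles), and filled symbols mark adjusted p under 0.05. BCL2, PMAIP1 and BAX lie left of 0 at both doses, BCL2L11 lies right of 0 at 500 nM (0.56), and BBC3 changes side from -0.72 to 0.39.

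The balance of the survival and BH3-only members was described by shares and ratios of summed TPM within a library. In these, the noncoding RNAs that hold much of the TMD8 total cancel out. BCL2 made up 67 ± 0.709% of the summed TPM of the 4 survival genes in OCI-Ly1 with DMSO (SD, n = 3) and 65.7 ± 0.493% at 500 nM. In TMD8 its share was 17 ± 2.12% with DMSO, 25.8 ± 1.55% at 150 nM and 34 ± 0.971% at 500 nM. BCL2A1 held 44.7% of that sum in TMD8 with DMSO and 36.4% at 500 nM, and MCL1 held 31.5% and 22.3%. The survival pool of TMD8 thus held a larger share of BCL2 at each dose, and no library of 1 group overlapped another.

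Among the BH3-only genes the largest share changed hands in OCI-Ly1. BIK held 39.3%, 36.2% and 33.2% of their summed TPM in the DMSO libraries of OCI-Ly1, and 17.2%, 18.1% and 18.7% at 500 nM. PMAIP1 held 26.3%, 30.4% and 31.3% with DMSO and 41.7%, 41.3% and 39.4% at 500 nM. In TMD8, BCL2L11 held 77.9 ± 0.85% with DMSO and 59 ± 0.586% at 500 nM (SD, n = 3). The TMD8 shares of BBC3 (4.49 ± 0.88% to 13.9 ± 0.451%) and PMAIP1 (7.89 ± 0.108% to 17.1 ± 0.513%) were higher at 500 nM. The summed BH3-only TPM divided by the summed survival TPM was 0.689, 0.668 and 0.653 in the OCI-Ly1 DMSO libraries and 0.947, 0.903 and 0.933 at 500 nM. The TMD8 ratio was 1.02, 0.978 and 0.971 in the DMSO libraries and 1.22, 1.25 and 1.27 in those of 500 nM. In both lines the 500 nM libraries lay above the DMSO libraries in this ratio, which counts transcripts and says nothing of protein. At 150 nM no such separation was seen. The OCI-Ly1 ratio then ran from 0.676 to 0.71, overlapping its DMSO libraries. That of TMD8 ran from 0.98 to 1.12 at this dose and likewise overlapped DMSO. The ratio covers the listed members only and leaves out other family genes, among them BID, HRK and BAD. From DMSO to 500 nM in TMD8, mean CPM went from 107 to 44.9 for BID, 2.51 to 22.9 for HRK and 17.2 to 18.4 for BAD. In OCI-Ly1 it went from 35.2 to 30.7, 16.9 to 31.4 and 34.1 to 54.6.

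**Figure D4:**
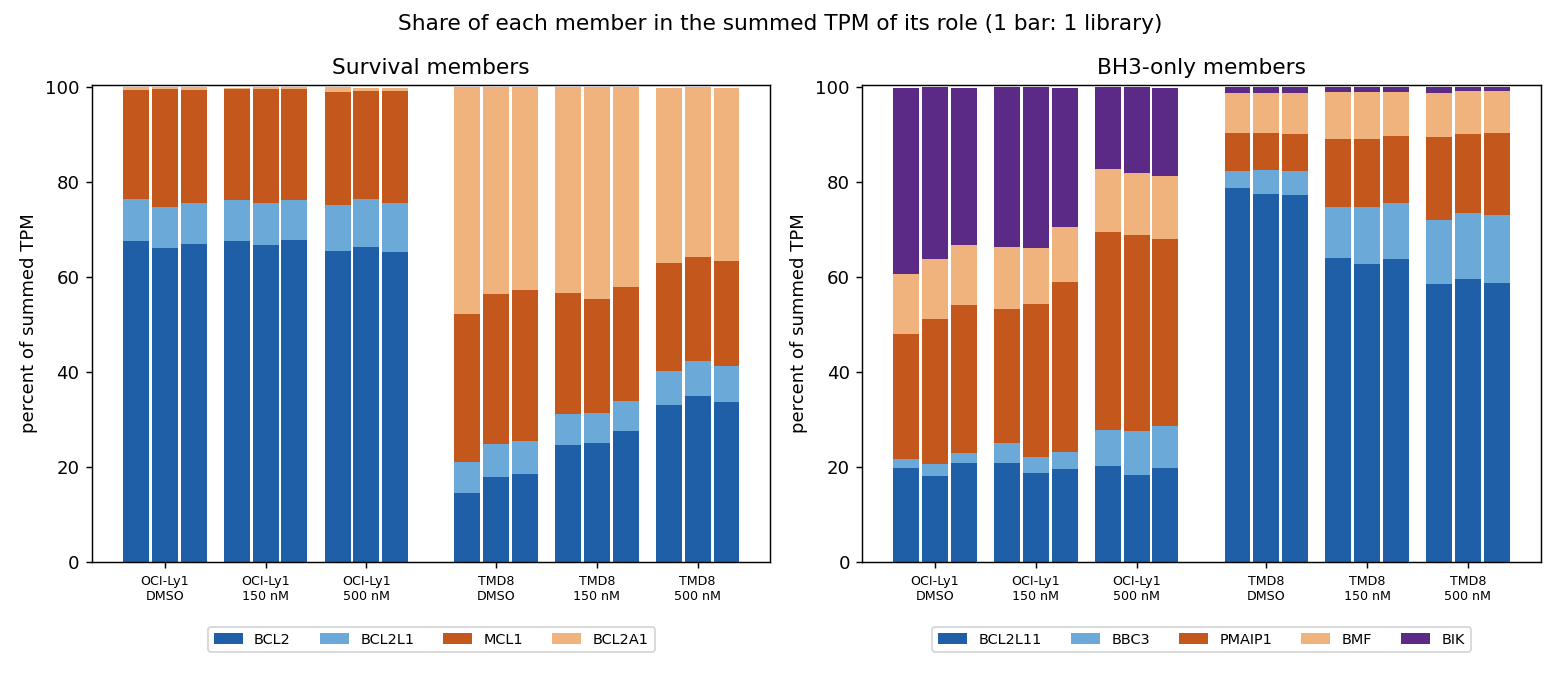
Each bar is 1 library, and its colours give the percent of summed TPM held by each of the 4 survival genes (left) and the 5 BH3-only genes (right), by line and dose. BCL2 grows from 17% to 34% of the survival sum in TMD8 and stays near 67% in OCI-Ly1, while BIK shrinks from 36.2% to 18% of the BH3-only sum in OCI-Ly1.

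The ratio of estimated count to TPM follows the mean length of the transcripts assigned to a gene, so it shows whether the mix of long and short transcripts moved. It was set to a median of 1 in each library and tested with limma. In TMD8 at 500 nM, 2 members were called, both lower, against 1.27% of the 13828 genes tested. BCL2L11, which is known for splice forms of different length and potency, had an index of 0.893, 0.899 and 0.91 in the DMSO libraries, 0.893, 0.839 and 0.799 at 150 nM and 0.748, 0.711 and 0.713 at 500 nM. The 500 nM libraries lay below all others, at 0.804 of the DMSO index (adjusted p = 0.017, limma). That call was lost on leaving out any 1 of the 3 DMSO libraries (adjusted p = 0.06 to 0.068) or the second or the third of the 500 nM libraries (0.065 and 0.067), and the ratio itself hardly moved. The count tests above took no account of transcript length, and the part of this shift in the BCL2L11 changes was not tested. BBC3 was called for a ratio of 0.99 between very even libraries. At 150 nM no member was called in TMD8, against 0.174% of genes. In OCI-Ly1 no member was called at 500 nM, where 0.66% of 13943 genes were, nor at 150 nM, where 0 genes were. The BCL2 index in TMD8 was 1.69, 1.43 and 1.37 with DMSO and 1.27, 1.23 and 1.25 at 500 nM. The groups were apart but the first DMSO library stood above the others, and the shift was not called (adjusted p = 0.21, limma).

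**Figure D5:**
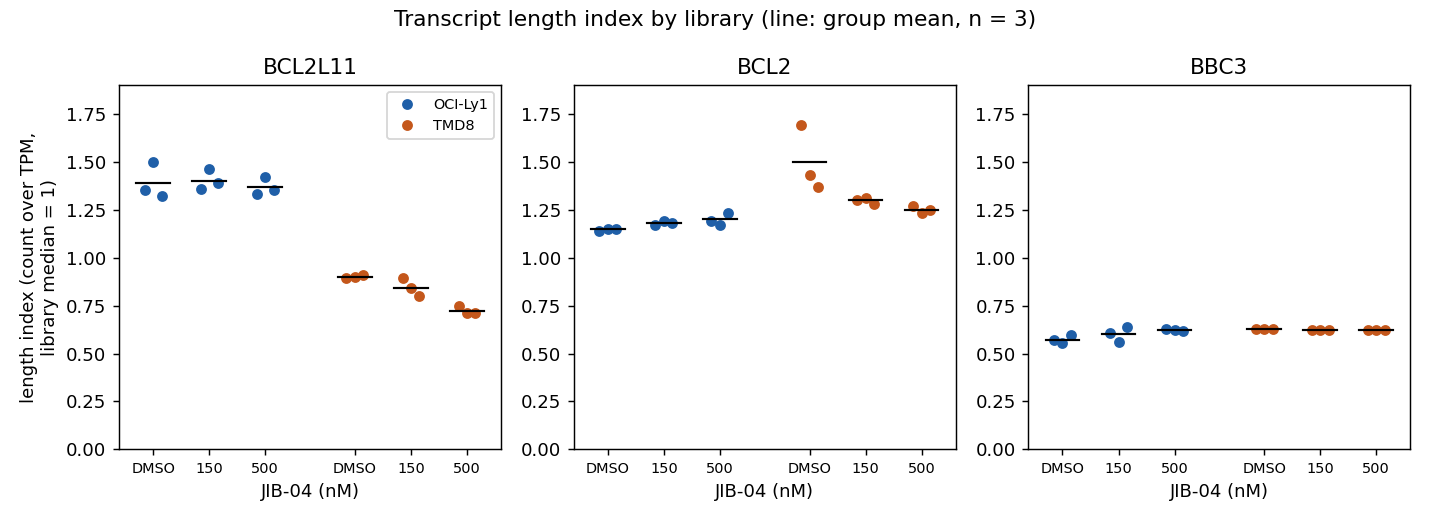
The transcript length index (estimated count over TPM, library median of 1) is plotted by library for BCL2L11, BCL2 and BBC3 against JIB-04 dose, with the group mean as a line (n = 3). For BCL2L11 the TMD8 points fall from a mean of 0.901 to 0.724, while the OCI-Ly1 points stay between 1.32 and 1.5.

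The rest of the apoptosis machinery was read from 53 other genes in 7 lists. At 500 nM, 18 rose and 18 fell of 50 tested in OCI-Ly1, and 16 rose and 20 fell of 51 tested in TMD8, with medians of 0.08 and -0.02 on the log2 scale. Over all genes tested, 27.7% rose and 25.9% fell in OCI-Ly1 while 29.9% rose and 30.7% fell in TMD8, and these shares stand behind each list count below. The split of the 53 moved with the scaling, to 23 rising and 8 falling in OCI-Ly1 and 7 rising and 33 falling in TMD8 on log2(TPM + 1). With 3 to 11 genes tested in a list, a count is a description, and no list was tested against the other genes. At 150 nM, 1 of 50 was called in OCI-Ly1, DDIT3, against 0.889% of all genes, and 29 of 51 in TMD8, against 44.2%. The count of 1 was 2 by library size alone and 3 with DESeq2 or without the low-count filter. Among 13 other BCL2 family genes, 3 rose and 3 fell of 10 tested in OCI-Ly1, and 4 rose and 3 fell of 11 tested in TMD8. HRK, a BH3-only gene otherwise best known in neurons, rose 1.86-fold in OCI-Ly1 and 9.16-fold in TMD8, where it went from 2.51 ± 0.234 to 22.9 ± 1.1 CPM (SD, n = 3). BID, which links death receptors to mitochondria, was at 0.875 of its DMSO level in OCI-Ly1 and at 0.422 of it in TMD8. BAK1, the effector that works beside BAX, was at 0.639 of its DMSO level in TMD8 (log2 change -0.65) and was not called in OCI-Ly1 (0.13, adjusted p = 0.13, edgeR). BAD, a BH3-only gene controlled by growth-factor signalling, rose 1.6-fold in OCI-Ly1 and was not called in TMD8 (0.09, adjusted p = 0.45, edgeR). BCL2L15 had the largest fall of that list in OCI-Ly1 (-0.67).

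Of the 9 regulators known to control family members, 7 rose and 0 fell in OCI-Ly1 at 500 nM, and 5 rose and 2 fell in TMD8. The median log2 change of the list was 0.36 and 0.20. The balance of higher and lower calls over all genes moved with the scaling, as given above for each line, and the counts of single lists were not repeated under other scalings. DDIT3, which encodes the stress factor CHOP, rose 7.77-fold in OCI-Ly1 and 7.68-fold in TMD8, and ATF4 rose 1.58-fold and 2.44-fold. FOXO3, a known activator of BCL2L11 and BBC3, rose 1.56-fold and 1.78-fold. Transcripts of the 5 genes that set MCL1 protein stability were less uniform: 3 rose and 1 fell in OCI-Ly1, while 1 rose and 2 fell in TMD8. FBXW7, a ligase subunit that marks MCL1 for destruction, rose 1.26-fold in both. The largest falls were those of USP9X in OCI-Ly1 (-0.19), a deubiquitinase that spares MCL1, and of HUWE1 in TMD8 (-0.17), another MCL1 ligase.

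The lists downstream of the pore are given by their counts. In the 10 genes of the apoptosome and caspases, 2 rose and 5 fell in OCI-Ly1 and 2 rose and 6 fell in TMD8, with medians of -0.2 and -0.32 on the log2 scale. APAF1, the scaffold that cytochrome c activates, rose 1.5-fold in TMD8, and its log2 change in OCI-Ly1 was -0.30. AIFM1 had the largest fall of the list in OCI-Ly1 (-0.59), and CYCS, which encodes cytochrome c, had it in TMD8 (-0.65). All 3 mitochondrial channel genes fell in both lines, VDAC1 most (-0.40 and -0.81). Of the 5 inhibitors of apoptosis, 1 rose and 3 fell in OCI-Ly1 and 0 rose and 3 fell in TMD8. BIRC5, the mitotic inhibitor of apoptosis survivin, fell most in both (-0.62 and -1.46), and BIRC2 rose in OCI-Ly1 (1.4-fold). In the 9 death receptor genes, 2 rose and 4 fell in OCI-Ly1, and 4 rose and 2 fell in TMD8. FAS rose 6.8-fold in OCI-Ly1, from 0.947 ± 0.174 to 6.41 ± 1.27 CPM (SD, n = 3), and 4.61-fold in TMD8. TNFRSF10A had the largest fall in OCI-Ly1 (-0.42), and in TMD8 BID had it, which is also in this list.

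Members were last compared by how they moved together across the 18 libraries, after each line's mean log2 CPM was subtracted. These correlations are descriptions, since the libraries of a group share their treatment. PMAIP1 and BMF were the most alike (r = 0.949), followed by BBC3 with BMF (0.931) and BBC3 with PMAIP1 (0.918). BCL2 and MCL1 were the most opposed (r = -0.827), followed by BCL2L11 and BIK (-0.815). Among all genes of at least 5 CPM in some group, the gene most like BBC3 was SESN2, a stress-induced regulator of nutrient signalling (r = 0.987), with IGFBP4 next (0.986). DNAJB9, an endoplasmic reticulum chaperone cofactor (0.989), and ATF4 (0.988) were most like PMAIP1. CALCOCO1 and SQSTM1, both autophagy receptors, were most like BMF (0.989 and 0.987). NFKBIA, which encodes the NF-kB inhibitor IkB-alpha, was most like BCL2L11 (0.984), with TXLNA next (0.979). NFKBIA rose in OCI-Ly1 (log2 change 1.25) and fell in TMD8 (-0.47) at 500 nM. BCL2 was most like ESR2 (0.986) and GADD45A (0.984). The nearest genes were less alike for BCL2L1 (KIAA0907 at 0.944 and NXPH4 at 0.942), BAX (SNN at 0.947 and NEAT1 at 0.938), BIK (TRABD at 0.944 and NCF1B at 0.93), MCL1 (NUP35 at 0.921 and RRP15 at 0.918) and BCL2A1 (STARD10 at 0.863 and ZNF304 at 0.856).

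Several members share exons with other genes in the GENCODE annotation, and the strand of counting is not given in the sources used here. BCL2L1 overlaps ABALON, BCL2L11 overlaps MIR4435-2HG and BMF overlaps BMF-AS1 on the opposite strand, while MCL1 overlaps ADAMTSL4-AS1 on its own strand. BBC3 overlaps MIR3190 and MIR3191. MIR3190 and MIR3191 have values of their own in the tables, and the other 4 partners were not analysed here. Whether reads of a partner were assigned to the member was not tested.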

How the data were processed

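Per the submitters' processing notes, the authors used kallisto (0.46.0), R (4.3.1), DESeq2 (1.40.2) and hg19. Their deposited tables gave estimated counts and TPM per gene symbol for 18 libraries. Libraries were ribosomal RNA-depleted and paired-end, per the labels' protocols. Estimated counts were rounded here, filtered by filterByExpr, scaled by TMM and tested with edgeR's quasi-likelihood test (4.0.16, R 4.3.3). Each dose contrast was fitted over the 9 libraries of a line. Line contrasts were fitted over all 18. P-values were adjusted by Benjamini-Hochberg over all genes tested, with a threshold of 0.05. The transcript length index took genes with at least 10 counts and 0.1 TPM in every library and used limma (3.58.1), as did the TPM scales. The likeness correlations covered 11945 genes. Every member was named, with the 2 genes most like each, and in each pathway list those with the largest change in each direction, plus FOXO3, DDIT3, ATF4, BAK1, BID and BAD. Some genes that this rule names are not reported here. The members and lists were chosen with earlier results of these data known. On simulated counts for 500 nM against DMSO, edgeR recovered 93.5% of 93 changes of 1.5-fold in OCI-Ly1 (15246 genes) and 95.7% of 94 in TMD8 (14821 genes). Far fewer genes were changed there than were called in the data. All changed genes lay above 5 CPM, so BCL2A1 in OCI-Ly1, BIK in TMD8 and smaller changes were not covered. Alternatives were other scalings, no filter, DESeq2 (1.42.0), TPM scales with pseudocounts of 1 and 0.1, a replicate block and leaving out each library. Promoter windows came from RefSeq.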

Additional observations from a re-analysis of the deposited data

Results flagged for a closer look

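The response to JIB-04 differed between OCI-Ly1 and TMD8 in the test of the difference itself for 9 of the members at 1 dose or both. Of all genes tested, 23.3% were called in this test at 150 nM and 46.4% at 500 nM. The share of genes called at 1 dose or both was not computed, so the count of 9 is a description only. Values are the OCI-Ly1 log2 change minus the TMD8 log2 change with its SE, from edgeR over 18 libraries, and 3 libraries stand behind each group. At 150 nM these were BCL2 (-0.62 ± 0.07), BBC3 (-0.72 ± 0.17), PMAIP1 (-1.01 ± 0.10), BMF (-0.52 ± 0.08) and BAX (-0.60 ± 0.10). At 500 nM the difference was negative for BCL2 (-0.98 ± 0.07), PMAIP1 (-0.76 ± 0.10), BIK (-0.83 ± 0.18) and BAX (-0.46 ± 0.10). It was positive for MCL1 (0.20 ± 0.07), BCL2A1 (0.64 ± 0.20) and BCL2L11 (0.56 ± 0.07). Against DMSO, BIK changed by -0.57 in OCI-Ly1 and 0.29 in TMD8 on the log2 scale, and MCL1 by -0.05 and -0.22. The line and its medium cannot be told apart in these differences.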

How the results depend on the processing

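The number of members called stayed within 1.5 times its value under every alternative for all 9 comparisons of expression, while the length index count of 2 ranged from 1 to 2 on leaving out a library. Log2 changes of single members that turned sign are given with the alternative that turned them. For BCL2 in OCI-Ly1 at 150 nM they were 0.0038 (RLE and DESeq2), 0.0041 (library size) and 0.0061 (no filter), and -0.017 to 0.021 without 1 library. BMF at that dose ranged from -0.091 to 0.0068 without 1 library. In OCI-Ly1 at 500 nM against DMSO, MCL1 gave 0.034 (library size), 0.084 and 0.085 (TPM with pseudocounts of 1 and 0.1), and BCL2 gave -0.14 (centred TPM) and -0.012 to 0.027 without 1 library. At 500 nM against 150 nM there, BCL2 gave -0.0042 (no filter), -0.096 (centred) and -0.013 to 0.027 (1 library out), and MCL1 gave -0.0024, -0.07 and -0.013 to 0.032. In TMD8 at 150 nM, BCL2L1 gave -0.028 and -0.03 (TPM), and BIK gave -0.1, -0.14, -0.0084 (centred) and -0.0064 to 0.034 (1 library out). At 500 nM, BCL2A1 gave 0.068 (library size) and -0.064 to 0.032 (1 library out), BCL2L1 -0.0037 and -0.004 (TPM), BIK -0.072 and -0.095 (TPM) and BCL2L11 0.084 (centred). At 500 nM against 150 nM in TMD8, BAX gave -0.0021 (RLE and DESeq2), -0.026 (no filter), -0.2 and -0.21 (TPM), -0.047 (centred) and -0.018 to 0.027 (1 library out), and BCL2L11 gave 0.14 (centred). Of the line differences, MCL1 at 150 nM gave -0.013 (library size) and BIK 0.011 (TPM + 0.1), and at 500 nM BCL2L1 gave 0.33 and 0.34 and BMF 0.31 and 0.31 (TPM). With DMSO, OCI-Ly1 against TMD8 gave for BCL2L1 -0.00068 (no filter), -0.024 (replicate block) and -0.0083 to 0.021 (1 library out), for MCL1 0.24 and 0.24, for BMF 0.62 and 0.64 and for BAX 0.33 and 0.33 (TPM). The cause was not tested. The replicate numbers showed no pairing across all groups: in each line 2 of 9 same-number pairs correlated above 0.1. Libraries matched best with their own number in 5 of 18 cases in OCI-Ly1 and 6 of 18 in TMD8. In both lines the pairs above 0.1 joined DMSO with 150 nM, for replicates 1 and 3 (r = 0.123 and 0.146 in OCI-Ly1, 0.125 and 0.141 in TMD8). Whether these 2 groups were partly paired was not tested. With the replicate block the BCL2L11 call in TMD8 at 500 nM was lost (adjusted p = 0.053) and the BBC3 line difference at 500 nM was gained (0.031), and it changed no other member's call. Counts of 16 to 66 in OCI-Ly1 for BCL2A1, and of 34 to 64 in TMD8 for BIK, limit what their changes can show.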
